A study of Mus musculus with 4 samples.

Results

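Mesenchymal cells are kept apart from epithelial cells by a small set of transcription factors, and 10 genes that encode such factors were examined here in mouse embryonic fibroblasts (MEFs), primary connective tissue cells with a finite lifespan in culture. The genes were Twist1, Twist2 and Tcf21, which encode basic helix-loop-helix (bHLH) proteins, the paired-related homeobox genes Prrx1 and Prrx2, the zinc finger repressor genes Snai1 and Snai2, the zinc finger and homeobox genes Zeb1 and Zeb2, and the T-box gene Tbx4. They were chosen by name among the 55487 genes counted, and all 10 were among the 19384 that were tested because their counts summed to 10 or more. RNA was sequenced from wild-type MEFs that had received pigment epithelium-derived factor (PEDF), a secreted protein, at 100 ng/mL for 24 h, and from untreated MEFs of the same genotype. The sample labels give passage 2 for all of these cells, whereas the text of the study gives a later passage. Each condition had 2 libraries, from experiment 1 and experiment 2, and the MEFs of the experiments came from different embryos. How many embryos were pooled in a preparation was not given in the sources used here.

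As background, Snai, Zeb and Twist proteins, and the class of bHLH factors to which Tcf21 belongs, bind short DNA elements called E-boxes (CANNTG). Snai and Zeb proteins prefer the form CAGGTG, through which they repress epithelial genes such as Cdh1, which encodes E-cadherin. In the embryo, Twist1 and the Prrx genes shape mesenchyme of the head and limb buds, Tcf21 marks mesenchyme of internal organs, and Tbx4 is a factor of the hindlimb and of lung mesenchyme. The microRNAs of the miR-200 family, which are made in epithelial cells, are known repressors of Zeb1 and Zeb2.

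To show the promoter context of these genes, the 250 bases before the annotated start were searched on both strands for the E-box CANNTG, for its form CAGGTG and for the TATA element TATAAA. RefSeq promoter sequences (GRCm38.p6) were used for 8 of the 10 genes, with 11 start sites in all. No window was examined for Snai2 or Zeb1. An E-box was found in 2 of these 11 windows, those of Snai1 and Tbx4. The windows are not independent, since 4 of them belong to Zeb2. Of these, chr2:45113280-45113529 and chr2:45113254-45113503 overlap. Among all 32851 promoter windows of this length, 66.2% held CANNTG, 17.2% held CAGGTG, which is one of its forms, and 12.4% held TATAAA. The windows shown are the 2 with an E-box and the pair of Twist genes without one, written 5′ to 3′ on the strand of the gene with the matches in capitals. The Snai1 window, chr2:167537945-167538194 on the plus strand, holds CACCTG, the reverse complement of CAGGTG, 126 bases before the start.
Snai1: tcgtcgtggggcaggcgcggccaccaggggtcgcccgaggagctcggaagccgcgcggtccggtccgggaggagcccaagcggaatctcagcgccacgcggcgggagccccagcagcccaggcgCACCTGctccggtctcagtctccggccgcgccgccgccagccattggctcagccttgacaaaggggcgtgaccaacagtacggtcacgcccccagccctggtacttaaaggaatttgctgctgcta
The Tbx4 window, chr11:85896515-85896764 on the plus strand, lies inside the counted gene (chr11:85886422-85916097), so its start is an internal one. It holds E-boxes 243, 118 and 111 bases before that start and the reverse complement of TATAAA at 85 bases.
Tbx4: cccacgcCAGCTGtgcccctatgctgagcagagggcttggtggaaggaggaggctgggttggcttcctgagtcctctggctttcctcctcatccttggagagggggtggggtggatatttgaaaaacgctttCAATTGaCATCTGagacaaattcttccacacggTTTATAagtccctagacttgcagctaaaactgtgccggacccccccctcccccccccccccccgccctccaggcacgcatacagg
The Twist1 window, chr12:33957421-33957670 on the plus strand, holds TATAAA 126 bases before the start.
Twist1: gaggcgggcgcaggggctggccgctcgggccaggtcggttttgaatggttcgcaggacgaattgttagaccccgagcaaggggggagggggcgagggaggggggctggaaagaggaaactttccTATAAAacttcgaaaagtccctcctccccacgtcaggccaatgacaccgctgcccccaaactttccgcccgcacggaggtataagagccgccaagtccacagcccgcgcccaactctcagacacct
The Twist2 window, chr1:91801211-91801460 on the plus strand, holds none of these letters.
Twist2: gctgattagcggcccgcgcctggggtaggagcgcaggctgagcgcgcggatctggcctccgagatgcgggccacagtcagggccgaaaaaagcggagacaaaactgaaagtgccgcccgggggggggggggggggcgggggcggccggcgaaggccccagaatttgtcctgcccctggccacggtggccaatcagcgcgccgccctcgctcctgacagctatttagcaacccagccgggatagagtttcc

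The microRNAs that can pair with Zeb1 and Zeb2 are shown because their genes were counted in the same libraries. The seed, bases 2 to 8 from the 5′ end, is in capitals, and the sequences from RefSeq fall into 2 seed groups. In the first group the seed pairs with CAGTGTT in a transcript.
miR-200a-3p: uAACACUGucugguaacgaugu
miR-141-3p: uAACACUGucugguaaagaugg
In the second group the seed pairs with CAGTATT.
miR-200b-3p: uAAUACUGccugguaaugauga
miR-200c-3p: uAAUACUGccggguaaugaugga
miR-429-3p: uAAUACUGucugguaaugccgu
The longest annotated 3′ untranslated region of Zeb1 held CAGTATT at 5 places and CAGTGTT at 4 places, and that of Zeb2 also held 5 and 4. Of the 21130 genes searched, 0.454% had 3 or more copies of CAGTATT and 0.88% had 3 or more copies of CAGTGTT. Snai1 held CAGTATT once, Snai2 held each once, Tbx4 held CAGTGTT once, and Twist1, Twist2, Prrx1, Prrx2 and Tcf21 held neither. The seed of miR-205-5p, another known partner of the Zeb genes, matched at 1 place in Zeb1 and at none in the other 9 genes. All 6 microRNA genes, Mir200a, Mir200b, Mir200c, Mir141, Mir429 and Mir205, had 0 counts in each of the 4 libraries. The libraries were made from polyadenylated RNA, so mature microRNAs were not measured, and 0 counts allow up to 0.168 to 0.203 CPM (counts scaled to a common library size) by counting error alone (3 counts per library).

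The libraries held 14722848 to 18144640 counts, and 22135 to 22647 genes had a count in a library. CPM values were scaled by TMM factors of 0.983 to 1.01. The 9 fibroblast markers, among them Col1a1 and Vim, were found in every library. They summed to 38200 and 44300 CPM in the control libraries of experiments 1 and 2 and to 35400 and 38100 CPM in the PEDF libraries. The 10 epithelial markers together reached 66.6 to 84.4 CPM, most of it from the keratin genes Krt8 (13.1 to 23.6 CPM), Krt18 (23.0 to 25.6) and Krt19 (19.6 to 24.6), while Epcam lay between 0.954 and 1.09 CPM. Of 7 endothelial markers, Tie1 was at 0 counts in all libraries and the other 6 had counts in each, with a sum of 30.7 to 32.3 CPM, of which Erg had 14.5 to 16.3 CPM. Skeletal muscle markers summed to 511 and 622 CPM in the control libraries and to 573 and 682 CPM in the PEDF libraries, and macrophage markers to 143 and 92 CPM in the control libraries and to 141 and 117 CPM in the PEDF libraries. In bulk RNA, fewer cells of a type and less RNA per cell cannot be told apart, and the part of these cells in the differences given below was not tested.

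Levels between genes were compared as TPM, the values per gene length and library size deposited by the authors, and they are given in the order control of experiment 1, PEDF of experiment 1, control of experiment 2, PEDF of experiment 2. Twist1 (ENSMUSG00000035799, chr12:33957671-33959829), a regulator of cranial and limb mesenchyme, had the highest level of the 10 genes at 186.3, 180.5, 155.5 and 165.4 TPM. Snai1, encoding the repressor Snail, followed with 148.6, 151.4, 131.8 and 144.6 TPM. Both genes were higher in each library of experiment 1 than in either library of experiment 2, and their ranges did not overlap with each other. Prrx2 had 119.9, 120.4, 102.4 and 113.5 TPM. Its paralogue Prrx1 had 101.7, 102.7, 105.5 and 108.6 TPM. These 2 homeobox genes were next in the order and could not be separated, since their ranges overlapped and Prrx2 lay above Prrx1 in 3 of the 4 libraries.

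Twist2, a close relative of Twist1 that is known from dermal mesenchyme, had 57.96, 59.56, 62.98 and 64.26 TPM. Snai2, encoding the repressor Slug, had 56.94, 53.4, 54.36 and 56.33 TPM. Twist2 lay above Snai2 in each library, although by no more than 1.02 to 1.16 times. Zeb1 was lower again, with 18.16, 15.68, 19.05 and 16.11 TPM. Tbx4 had 16.72, 15.19, 14.03 and 14.67 TPM, a range that overlapped with that of Zeb1, although Zeb1 was above it within each of the 4 libraries. Zeb2 had 8.822, 9.06, 10.3 and 8.768 TPM. Tcf21, a bHLH factor of visceral mesenchyme, had the lowest level at 2.193, 3.603, 2.28 and 1.925 TPM. These Tcf21 values rested on 27, 48, 33 and 28 counts, while each of the other 9 genes had at least 293 counts in each library. The order was the same for all 10 genes when counts per kilobase with TMM scaling were used instead of TPM. By mean TPM, Twist1 stood at percentile 96 of the tested genes, Zeb2 at 50.1 and Tcf21 at 29.5. The genes of the Twist, Snai and Zeb pairs did not lie next to each other in this order.

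**Figure D1:**
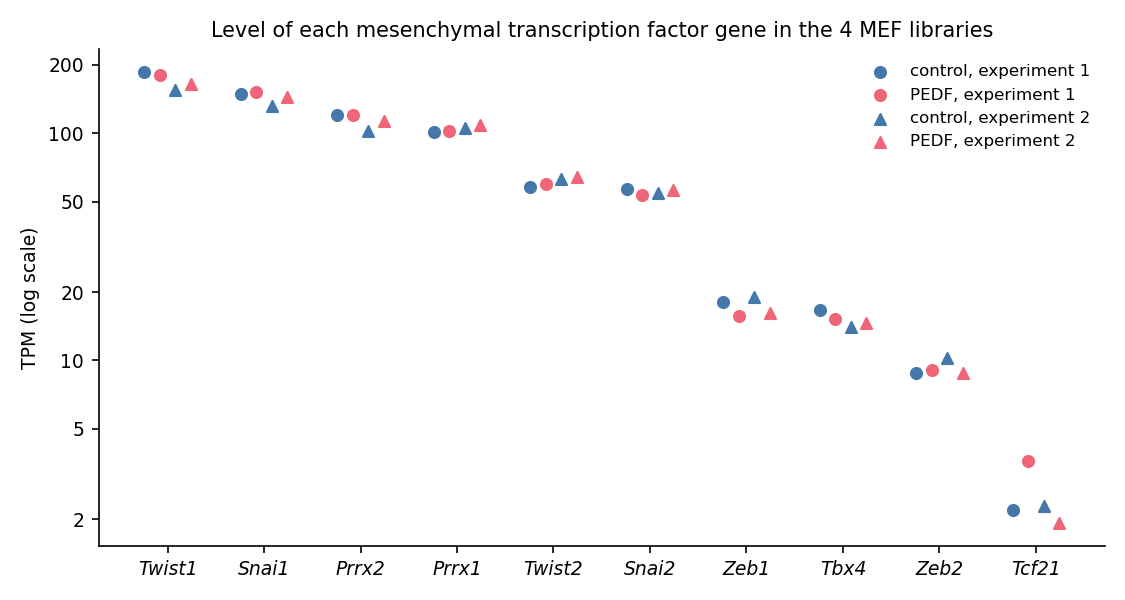
Level of each of the 10 genes in TPM (log scale) in the 4 libraries, with blue for control, red for PEDF, circles for experiment 1 and triangles for experiment 2. The libraries of a gene lie close together compared with the distance from Twist1 (155.5 to 186.3 TPM) to Tcf21 (1.925 to 3.603 TPM), and the Prrx2 and Prrx1 ranges and the Zeb1 and Tbx4 ranges overlap.

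Within families, one paralogue was above the other in every library, except for the Prrx pair. The TPM of Twist1 was 3.21 and 3.03 times that of Twist2 in experiment 1 and 2.47 and 2.57 times in experiment 2. Snai1 was 2.43 to 2.84 times as high as Snai2, and Zeb1 was 1.73 to 2.06 times as high as Zeb2. The Prrx2 to Prrx1 ratio was 1.18 and 1.17 in experiment 1 and 0.971 and 1.04 in experiment 2. Tbx4, the hindlimb T-box gene, was 1.76 to 2.14 times as high as its forelimb relative Tbx5, and the hindlimb homeobox gene Pitx1 was 2.4 to 3.42 times as high as Tbx4. Between experiments the ratios did not overlap for any of these pairs except the Zeb pair. For single genes, both libraries of experiment 2 were above both of experiment 1 in 19.1% of all genes, and below in 18.4%. Pairs that hold the same gene, such as Tbx4, are not independent, and a share for ratios of gene pairs was not computed. Within an experiment, the control and PEDF ratios of the Twist pair differed by less than the distance between the experiments.

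The comparison of PEDF with control asked whether any of these genes responded to the protein. By edgeR's quasi-likelihood test with Benjamini-Hochberg adjustment over all tested genes, none of the 10 genes had an adjusted p under 0.05, compared with 0.00516% of all tested genes, which was 1 gene. This background was not stable, since 205 genes were called without control replicate 1, 24 without PEDF replicate 2 and 106 with no filter on low counts, while the 10 genes had no call in any of these fits. At an unadjusted p under 0.05 there was 1 of 10, Zeb1, compared with 6.88% of all genes. DESeq2 called none of the 10, compared with 0.0115% of the 26183 genes it tested, and limma on log2(TPM + 1) called none of the 10 or of all genes. Neither gave any of them an unadjusted p under 0.05. Since both libraries of an experiment came from the same MEFs, the experiment was also fitted as a replicate block, and 0 of 10 were called in that fit, against 3.75% of all genes. With the block, DESeq2 gave an adjusted p to 1 of the 10, Prrx1 (0.798), and to 1817 genes in all, of which it called 6.55%. After the trend of each library with gene length was also removed, 0 of 10 were called in the fit with the block, against 2.17% of all genes. The median size of the log2 fold change was 0.0672 for the 10 genes and 0.137 for all tested genes. All tested genes include genes with as few as 10 counts in total. The 2 medians were not matched for level, so they do not compare stability.

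Zeb1 (ENSMUSG00000024238, chr18:5591860-5775467), which represses epithelial genes together with the corepressor CtBP, had the smallest unadjusted p of the members in edgeR without and with the block. With the block and the length trend removed, Prrx1 had the smallest (unadjusted p of 0.0026, against 0.0453 for Zeb1, by edgeR). The levels of Zeb1 were 66.18 and 67.53 CPM in control MEFs of experiments 1 and 2, and 58.72 and 57.46 CPM in the PEDF libraries. Both PEDF libraries were below both control libraries, a pattern shown by 1 of the 10 genes and by 18.4% of all genes tested. The log2 ratio of PEDF to control was -0.17 in experiment 1 (95% counting interval -0.30 to -0.04) and -0.23 in experiment 2 (-0.35 to -0.11), where these exact binomial intervals cover counting error only. In edgeR the log2 fold change was -0.20 (standard error 0.08, 95% interval -0.37 to -0.04), with an unadjusted p of 0.02 and an adjusted p of 0.696. With the experiment as a replicate block it was -0.20 (standard error 0.07) and the adjusted p was 0.0537. When the length trend was removed as well, the log2 fold change of Zeb1 was -0.13 and the edgeR adjusted p 0.409. The exons of Zeb1 cover 10266 bases. Leaving out each library in turn gave log2 fold changes between -0.22 and -0.19. Since both PEDF libraries were below both control libraries, a negative direction in these fits was fixed in advance.

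Zeb2, the other Zeb gene (chr2:44983632-45117395), did not share this pattern. Its levels were 63.27 and 71.9 CPM in control MEFs of experiments 1 and 2 and 66.76 and 61.55 CPM in the PEDF libraries. The log2 ratio of PEDF to control was 0.08 in experiment 1 (95% counting interval -0.05 to 0.21) and -0.22 in experiment 2 (-0.34 to -0.11). These intervals did not overlap, which was so for 1 of the 10 genes and for 5.13% of all genes with a count in both experiments. Over both experiments the log2 fold change was -0.08 (95% interval -0.26 to 0.11), and it was 0.06 with the block and the length trend removed.

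The Prrx genes encode homeobox proteins that support the growth of limb mesenchyme. Prrx1 (chr1:163245119-163313710) had by far the most counts of the 10 genes, 5895 to 7442 per library. Its levels were 399.3 and 403.3 CPM in the control libraries and 414.5 and 417.6 CPM in the PEDF libraries. Both PEDF libraries were above both control libraries, which was seen for 1 of the 10 genes and for 18.9% of all genes. The difference was small, at a log2 ratio of 0.05 in each experiment, and over both experiments the log2 fold change was 0.05 (standard error 0.07, adjusted p = 0.903 by edgeR). In the fit with the experiment as a replicate block and the length trend removed it was 0.13 (standard error 0.04, adjusted p = 0.0894). Prrx2 (chr2:30834972-30881251) had 83.45 and 69.38 CPM in the control libraries and 86.12 and 77.32 CPM in the PEDF libraries, so that its control and PEDF libraries overlapped. Its log2 ratio of PEDF to control was 0.05 in experiment 1 (95% counting interval -0.07 to 0.16) and 0.16 in experiment 2 (0.04 to 0.27). The log2 fold change of Prrx2 over both experiments was 0.10 (standard error 0.09, adjusted p = 0.861 by edgeR), and 0.02 with the replicate block and the length trend removed.

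For the Snai genes, whose proteins recruit corepressors to E-boxes, the control and PEDF libraries also overlapped. Snai1 (chr2:167538195-167542814) had 85.49 and 73.81 CPM in the control libraries and 89.53 and 81.47 CPM in the PEDF libraries. Its log2 fold change was 0.10 (95% interval -0.08 to 0.29, adjusted p = 0.829 by edgeR), with a log2 ratio of 0.07 in experiment 1 and 0.14 in experiment 2. With the replicate block and the length trend removed it was 0.02. Snai2 (chr16:14705852-14709385) had 40.85 and 37.94 CPM in the control libraries and 39.36 and 39.56 CPM in the PEDF libraries. Its log2 fold change was 0.00384 (95% interval -0.18 to 0.19), and the ratios of the 2 experiments had opposite signs.

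The bHLH genes showed no difference between control and PEDF that passed the test. Twist1 had 107.6 and 87.43 CPM in the control libraries and 107.2 and 93.53 CPM in the PEDF libraries, and its log2 fold change was 0.04 (95% interval -0.17 to 0.25). The 2 experiments were farther apart in Twist1 than control and PEDF were within either experiment. Twist2 (chr1:91801461-91848028) had 65.3 and 69.04 CPM in the control libraries and 68.95 and 70.87 CPM in the PEDF libraries, a log2 fold change of 0.06 (95% interval -0.11 to 0.22). Leaving out single libraries gave 0.0174 to 0.0973 for Twist2. Tcf21 (chr10:22817281-22820174) had 1.829 and 1.849 CPM in the control libraries and 3.087 and 1.571 CPM in the PEDF libraries. Its PEDF library of experiment 1 was the highest and that of experiment 2 the lowest, and its log2 fold change of 0.325 had a wide 95% interval (-0.47 to 1.12). Tbx4 (chr11:85886422-85916097) had 20.19 and 16.48 CPM in the control libraries and 18.84 and 17.34 CPM in the PEDF libraries, and its log2 fold change was -0.02 (95% interval -0.30 to 0.27).

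Counted by direction, PEDF was above control in both experiments for 4 of the 10 genes (Twist2, Prrx1, Prrx2 and Snai1), compared with 30.1% of all genes, and below control in both for 1 gene (Zeb1), compared with 28.8% of all genes. The other 5 genes had opposite signs in the 2 experiments. In terms of size, the 95% intervals of the 9 genes other than Tcf21 lay within a fold of 0.774 to 1.23 in edgeR, and that of Tcf21 reached from 0.722 to 2.17.

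**Figure D2:**
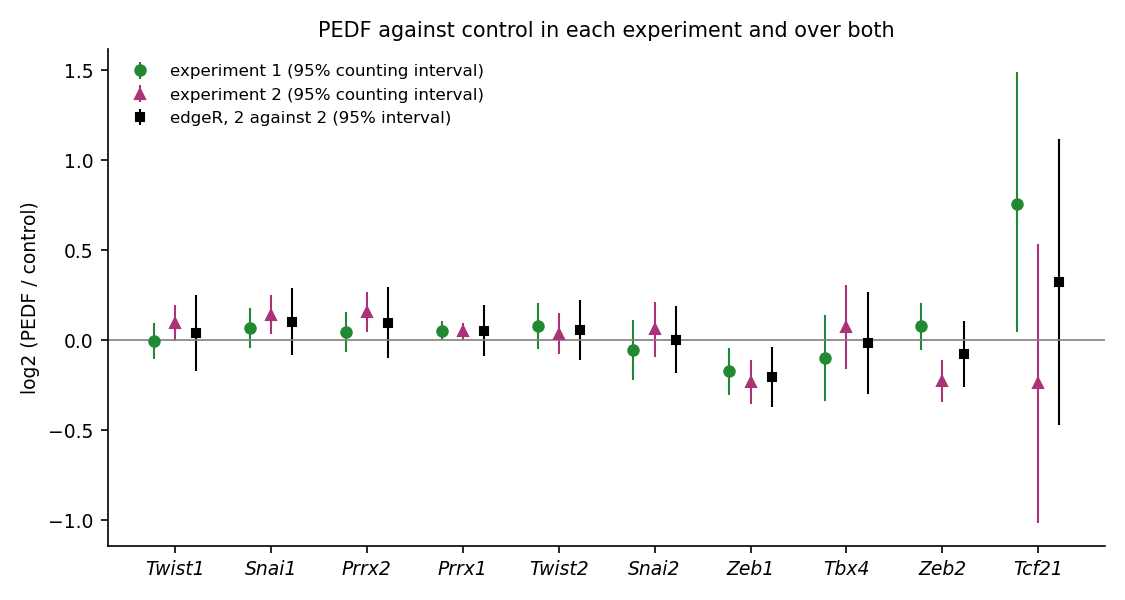
Log2 ratio of PEDF to control for the 10 genes in order of level, in experiment 1 (green circles) and experiment 2 (purple triangles) with 95% counting intervals, and over both experiments by edgeR (black squares) with the 95% interval of the fit. The edgeR interval excludes 0 for Zeb1 (-0.37 to -0.04) before adjustment for the number of genes, Zeb2 has counting intervals that do not overlap between the experiments, and the intervals of Tcf21 are the widest.

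The comparison of experiment 2 with experiment 1 gave the distance between MEF preparations against which the treatment was set. Experiment and MEF preparation cannot be told apart from any other difference between the 2 runs. Without a term for the treatment, edgeR called 0 of the 10 genes, compared with 0.0567% of all genes, which was 11 genes. That number was 480 without PEDF replicate 2, 129 without control replicate 1, 61 without control replicate 2, 21 without PEDF replicate 1 and 139 with no filter on low counts, each with 0 of the 10 genes called. At an unadjusted p under 0.05 there were 3 of 10 (Twist1, Prrx2 and Snai1), compared with 7.67% of all genes. DESeq2 gave an adjusted p to 9 of the 10 and called none, compared with 0.104% of the 12477 genes it gave one, with 1 of the 10 at an unadjusted p under 0.05, and limma on log2(TPM + 1) likewise called 0 of 10, with 1 at an unadjusted p under 0.05. When the treatment was added as a term, 2 of the 10 genes, Twist1 and Prrx2, were called by edgeR, compared with 4.49% of all genes. In that fit the log2 fold change of Twist1 was -0.25 (standard error 0.06, 95% interval -0.36 to -0.14, adjusted p = 0.00107, against 0.488 in edgeR without that term). That of Prrx2 was -0.21 (standard error 0.06, adjusted p = 0.0188), and that of Snai1 was -0.17 (standard error 0.06, adjusted p = 0.0722). After the length trend was also removed, 0 of 10 were called, compared with 3.11% of all genes, with values of -0.17 for Twist1 (standard error 0.06, adjusted p = 0.0574 in edgeR) and -0.15 for Prrx2 (adjusted p = 0.201 in edgeR).

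In CPM, both libraries of experiment 2 were below both libraries of experiment 1 for 4 of the 10 genes (Twist1, Prrx2, Snai1 and Tbx4), compared with 18.4% of all genes. Both were above for 1 gene, Twist2, compared with 19.1% of all genes. The log2 ratio of experiment 2 to experiment 1 for Twist1 was -0.30 in control MEFs (95% counting interval -0.40 to -0.20) and -0.20 in PEDF-treated MEFs (-0.29 to -0.10). For Prrx2 it was -0.27 in control MEFs (-0.38 to -0.15) and -0.16 in PEDF-treated MEFs (-0.27 to -0.05). Without control replicate 2 the log2 fold change between the experiments, with no treatment term, was -0.133 instead of -0.209 for Prrx2 and -0.103 instead of -0.173 for Snai1. Markers of some other cells differed in level between the experiments as well, while the sums of 7 endothelial markers overlapped. The endothelial sums were 31.3 and 32.3 CPM in experiment 1 and 30.7 and 32.1 CPM in experiment 2. The summed level of 9 macrophage markers was 141 and 143 CPM in experiment 1 and 92 and 117 CPM in experiment 2, that of 10 epithelial markers was 80.6 and 84.4 CPM against 66.6 and 70.9 CPM, and that of 7 skeletal muscle markers was 511 and 573 CPM against 622 and 682 CPM. For 5 neural crest and glia markers it was 41 and 42.4 CPM against 47.5 and 43.7 CPM. Within the epithelial list, Krt8 was lower in experiment 2 (13.06 and 15.71 CPM against 23.64 and 22.83 CPM). Krt19 was higher there in the PEDF library (24.58 against 19.55 CPM). The part of these cells in the lower Twist1 and Prrx2 levels was not tested.

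**Figure D3:**
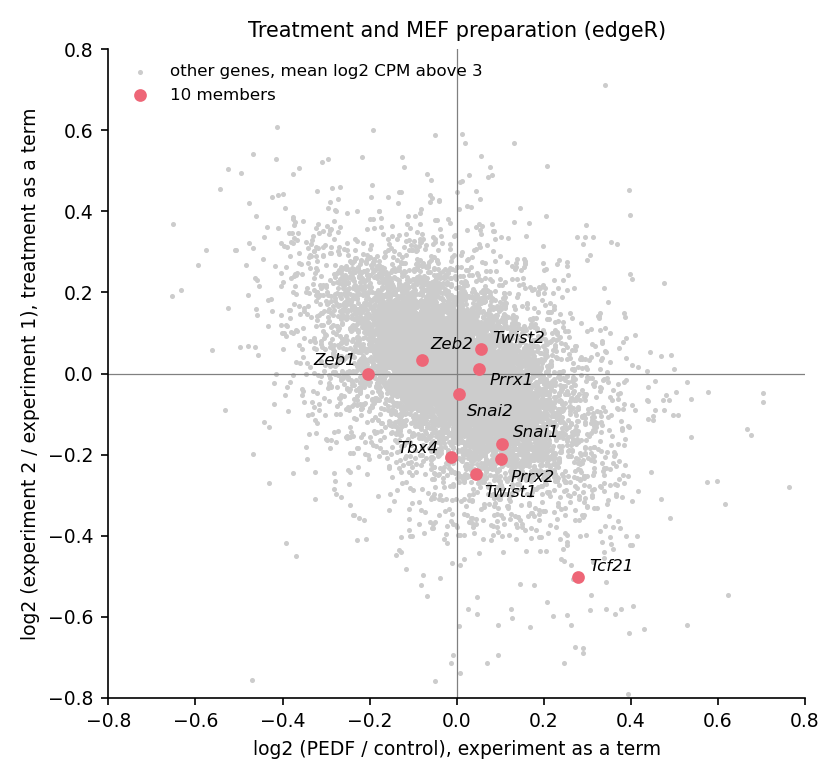
Log2 fold change of PEDF against control with the experiment as a term (horizontal axis) and of experiment 2 against experiment 1 with the treatment as a term (vertical axis) in edgeR, for the 10 genes (red) and for 10846 other genes with a mean log2 CPM above 3 (grey; 14 genes lie outside the axes, which end at 0.8). Zeb1 lies to the left at the height of 0 (-0.000446). On the axis of the experiments 7 of the 10 genes had a value below 0, a count that includes Zeb1. The median of all tested genes on that axis was 0.000661. Tcf21 lies lowest (-0.50), followed by Twist1, Prrx2, Tbx4 and Snai1.

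Some of these genes share exons with a gene on the opposite strand, and the strand setting of the counting was not given in the sources used here. The antisense gene Gm29100 (chr1:91798528-91802937) shares 1477 exon bases with Twist2 and spans the Twist2 promoter window shown above. It had 777, 888, 994 and 1010 counts, beside 964, 1072, 1232 and 1263 counts of Twist2. The TPM of Twist2 was 1.68 to 1.74 times that of Gm29100 in the 4 libraries, a narrower range than for any pair of paralogues given here. The log2 fold change of Gm29100 with PEDF was 0.07 (adjusted p = 0.89 in edgeR), and reads within the shared bases cannot be told apart if strand was not used. Zeb2os shares 653 exon bases with Zeb2 and had 36, 52, 39 and 51 counts, a log2 fold change of 0.42 (95% interval -0.19 to 1.04). Gm10125, which shares 198 exon bases with Zeb1, had 23 and 26 counts in the control libraries and 14 and 14 counts in the PEDF libraries, a log2 fold change of -0.84 (95% interval -1.78 to 0.11). Against the 913 to 1205 counts of Zeb1 and the 934 to 1283 counts of Zeb2, both of these antisense genes were small.

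Genes that act with these factors were described from lists. Without the block, edgeR, DESeq2 and limma called no gene of these lists for PEDF against control. In edgeR, an unadjusted p under 0.05 was then given to 3 of 11 bHLH genes, 3 of 14 corepressors, 5 of 21 effectors, 1 of 30 other factors and 0 of 15 epithelial genes, compared with 6.88% of all genes. The numbers of calls below are those with the experiment as a replicate block, in which 0 of the 10 factors themselves and 3.75% of all genes were called. The p-values of this fit rest largely on variation pooled over genes, since 4 libraries hold little information on the spread of each gene. Among 11 tested bHLH partners, relatives and antagonists, 3 rose with PEDF and none fell. These were Id1, Id2 and Id3, whose proteins lack a DNA-binding region and hold bHLH factors away from E-boxes. Id3 had 327.1 and 282.1 TPM in control MEFs of experiments 1 and 2 and 363.7 and 359 TPM in the PEDF libraries, and its log2 level was 0.28 higher with PEDF (standard error 0.05, adjusted p = 3.46e-06). Id1 had a log2 fold change of 0.26 (adjusted p = 0.00275) and Id2 of 0.23 (adjusted p = 0.0159), and all 3 were above control in both experiments. With the length trend removed, only Id3 of the list was called (log2 fold change 0.19, adjusted p = 0.00509 by edgeR). DESeq2 with the block gave 4 of the 11 an adjusted p and called 1 of them, compared with the 6.55% it called of all genes with an adjusted p. The median log2 fold change with the block was 0.159 for the 11 genes and 0.00226 for all genes.

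Of 14 corepressors and protein regulators of Snai and Zeb, 1 rose and 1 fell with the block. Hdac1, a histone deacetylase found in many corepressor complexes, rose by 0.18 on the log2 scale (standard error 0.05, adjusted p = 0.0173), from 115.8 to 125.1 TPM in experiment 1 and from 118.2 to 135.9 TPM in experiment 2. Ajuba, a LIM protein that binds Snai proteins, fell by 0.21 on the log2 scale (standard error 0.06, adjusted p = 0.0104), from 82.85 to 70.62 TPM and from 96.89 to 82.56 TPM. Ctbp1, the corepressor with the highest level (mean 158.9 TPM), had a log2 fold change of 0.09 (adjusted p = 0.371 by edgeR). With the length trend removed, Ajuba was the 1 gene of the 14 still called, and DESeq2 with the block gave an adjusted p to 4 of them, called none and gave 2 an unadjusted p under 0.05. The median log2 fold change of this list with the block was 0.0209.

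Genes on which these factors are known to act differed in level by orders of magnitude. Of 19 epithelial genes repressed through E-boxes, 15 could be tested, and with the block edgeR called none and gave none an unadjusted p under 0.05. DESeq2 with the block also gave none an unadjusted p under 0.05. Cdh1 had 47 to 79 counts per library and a mean of 2.526 TPM, while Cdh3 (P-cadherin) had a mean of 98.72 TPM and Jup (plakoglobin) of 53.93 TPM. The log2 fold change with the block was -0.06 for Cdh3 (standard error 0.05) and 0.05 for Jup (standard error 0.05), and the list had a median of -0.0438. The 31 other mesenchymal and limb transcription factors, of which 30 were tested, likewise had no call with the block in edgeR. At an unadjusted p under 0.05 there were 3 of the 30, compared with 14.6% of all genes in this fit, and DESeq2 with the block gave 1 of the 30 an adjusted p and none an unadjusted p under 0.05. The list had a median log2 fold change of 0.0426. Hic1 (mean 75.32 TPM) and Tbx15 (mean 55.74 TPM), the highest of them, had log2 fold changes of -0.07 and 0.03.

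Of 21 mesenchymal effector genes, 7 fell with PEDF and none rose in the fit with the block. Fn1, encoding the matrix protein fibronectin, had 2062 and 2541 TPM in the control libraries and 1625 and 1869 TPM in the PEDF libraries. It fell by 0.37 on the log2 scale (standard error 0.04, adjusted p = 2.89e-21 by edgeR with the block and 0.536 without it). Tnc, encoding the matrix protein tenascin C, had 733.6 and 1037 TPM in the control libraries and 579.1 and 754.4 TPM in the PEDF libraries, a log2 fold change of -0.38. Both were lower with PEDF within each experiment. The others named here were Col1a1 of type I collagen (-0.24), Loxl2, a collagen cross-linking enzyme (-0.31), Itga5 of the fibronectin receptor (-0.23), and the growth factor receptor gene Pdgfrb (-0.22). Sparc, the matrix gene with the highest level after Col1a1 (mean 3180 TPM), had a log2 fold change of 0.06 (adjusted p = 0.533 by edgeR). Calls among the cell type markers went in both directions in the same fit. Of 9 fibroblast markers, 2 rose, the matrix proteoglycan genes Dcn (log2 fold change 0.35, adjusted p = 1.14e-06) and Lum (0.34, adjusted p = 1.12e-05), and 3 fell, Col1a1, Col1a2 and Pdgfrb, which the effector list also holds. With the length trend removed the calls were 2 higher and 2 lower, without Col1a2 (adjusted p = 0.817 in edgeR), and DESeq2 with the block gave 7 of the 9 an adjusted p and called 1 lower. The macrophage marker Lyz2 (0.39) was called higher in the blocked edgeR fit, although its log2 ratio was 0.05 in experiment 1 (95% counting interval -0.08 to 0.18) and 0.81 in experiment 2, and DESeq2 with the block gave no macrophage marker an adjusted p. Of 7 skeletal muscle markers 3 rose with the block, Des (0.19), Acta1 (0.19) and Actc1 (0.28), and of these only Actc1 was called with the length trend removed. DESeq2 with the block gave 2 of the 7 an adjusted p and called 1. Without the block none of these markers was called by edgeR or DESeq2. The part of these cells in the lower effector levels was not tested. Members of the effector list fell with the block while none of the 10 transcription factors was called, and the difference between the lists was not tested. The lists also differed in counts and so in precision. With the block, Pdgfrb was called at -0.22 (standard error 0.04). Zeb1 at -0.20 (standard error 0.07) was not called (adjusted p = 0.0537 by edgeR). With the length trend removed, 6 of the 21 fell and 1 rose, and DESeq2 with the block gave 19 an adjusted p and called 5 lower, against its 6.55% of all genes in either direction.

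**Figure D4:**
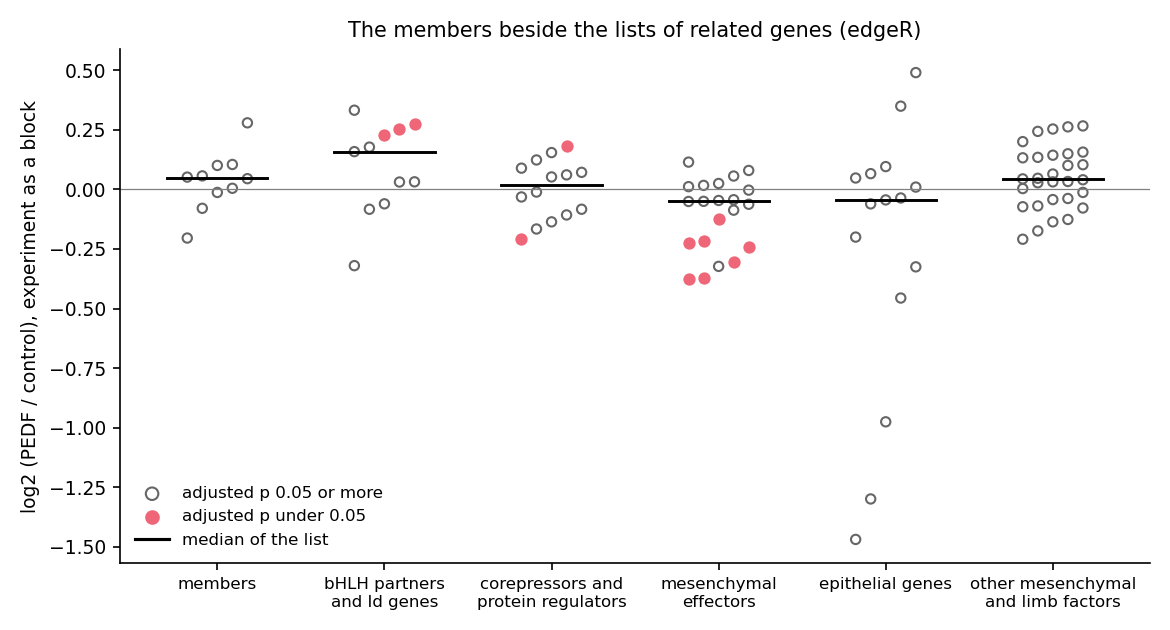
Log2 fold change of PEDF against control in the blocked edgeR fit for each tested gene of 6 lists, with filled red circles for an adjusted p under 0.05, open circles for the others and a bar at the median of the list. None of the 10 members is filled, 3 bHLH partners and Id genes lie above 0 and 7 mesenchymal effector genes lie below 0 as filled circles.

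Of the 10854 genes whose mean log2 CPM exceeded 3, those whose log2 CPM over the 4 libraries lay closest to that of Twist1, after each was centred on its mean, were Ndufa11 (distance 0.0223), Zfp395 (0.028) and Gm26596 (0.0292). Ndufa11, which encodes a subunit of respiratory complex I, had 50.74 and 41.08 CPM in control MEFs of experiments 1 and 2 and 51.39 and 44.49 CPM in the PEDF libraries. Like Twist1, it was higher in both libraries of experiment 1 than in either library of experiment 2. A distance over 4 libraries is a description of these libraries.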

How the data were processed

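Polyadenylated RNA of 4 MEF libraries was sequenced from directional libraries. The authors trimmed the reads with Trimmomatic 0.38, aligned them with HISAT2 2.1.0 and deposited raw featureCounts 1.6.3 counts of uniquely mapped reads. TPM values were deposited by the authors too, and their conversion was not given in the sources used here. The build was mm10 per the labels, and 54784 of 55487 genes had the coordinates of GENCODE M21.

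Tests ran in edgeR 4.0.16 under R 4.3.3 (TMM, robust quasi-likelihood test, Benjamini-Hochberg) for 19384 genes whose counts summed to 10 or more, and 95% intervals came from the same fit. The length trend was a natural spline of 5 degrees of freedom per library. Alternatives were RLE factors, no filter on low counts, filterByExpr, DESeq2 1.42.0, limma 3.58.1 on log2(TPM + 1) and log2(TPM + 0.1), and each library left out. The treatment term with the length trend removed was added after seeing the data. The methods were tested on simulated data. Libraries of an experiment share their embryos per the labels, and the experiment differences in control and PEDF libraries correlated over 10855 genes (r = 0.415), which are not independent. As for the replicate block, it left the members at 0 calls. Members and lists were chosen with earlier results of these data known. All 10 members were named, and of each other list the called genes (at most 6) and the 2 with the highest mean TPM. Cdh1, Epcam, Krt8, Krt18, Krt19, Erg, Tie1, Dcn, Lum, Lyz2, Des, Acta1, Actc1, Col1a2, Vim, Tbx5 and Pitx1 were named in addition, after their values were seen.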

Additional observations from a re-analysis of the deposited data

Results flagged for a closer look

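For 5 of the 10 genes the ratio of PEDF to control had opposite signs in experiments 1 and 2, with 1 library for each condition in an experiment, so that the difference itself was not tested. On the log2 scale the ratio in experiment 2 minus that in experiment 1 was -0.302 for Zeb2, the one gene of the 5 whose 95% counting intervals did not overlap, which was so for 5.13% of all genes with a count in both experiments. For Tcf21, with 27 to 48 counts per library, it was -0.991. The values were 0.173 for Tbx4, 0.114 for Snai2 and 0.104 for Twist1.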

How the results depend on the processing

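The number of the 10 genes called for PEDF against control was 0 in each of the 9 alternatives and with each library left out, including the replicate block in edgeR, which changed no call of a member. In the replicate block in DESeq2 the 0 rests on 1 of the 10 genes, as the others were given no adjusted p. For experiment 2 against experiment 1 it was 0, except for the 2 called with the treatment as a term. Of 160 log2 fold changes under alternatives that kept all libraries, 149 had the direction of the main value and 11 were reversed, each of a gene with a main value between -0.0773 and 0.0419. For PEDF against control, the block with the length trend removed gave -0.0401 for Twist1, -0.0705 for Snai2 and 0.0602 for Zeb2, and limma gave -0.0201 for Snai2 with a pseudocount of 1 and -0.0204 with 0.1. For experiment 2 against experiment 1, the treatment as a term gave -0.000446 for Zeb1, and with the length trend removed it gave -0.0413 for Prrx1, 0.0116 for Snai2, -0.0497 for Zeb1 and -0.0705 for Zeb2, while limma gave 0.00499 for Snai2. The cause was not tested.

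Of 80 log2 fold changes with a library left out, 15 were reversed. For PEDF against control they ranged from -0.104 to 0.197 for Twist1, from 0.0174 to 0.0973 for Twist2, from -0.0325 to 0.235 for Prrx2, from -0.00184 to 0.211 for Snai1, from -0.051 to 0.0559 for Snai2, from -0.166 to 0.0181 for Zeb2, from -0.161 to 0.133 for Tbx4 and from -0.227 to 0.745 for Tcf21. For experiment 2 against experiment 1 they ranged from -0.0161 to 0.0392 for Prrx1, from -0.12 to 0.11 for Zeb1 and from -0.0793 to 0.142 for Zeb2. Without a reversal they ranged there from -0.293 to -0.133 for Prrx2, from -0.249 to -0.103 for Snai1 and from -0.849 to -0.0967 for Tcf21, which was lowest without control replicate 1 and nearest to 0 without PEDF replicate 1. In such a fit the lone library of a group is assumed to vary like the others. Tcf21 had 27 to 48 counts per library, and each other member at least 293.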
